A study of Mus musculus with 8 samples.

Results

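The renin-angiotensin system genes described here are 9 named genes, Agt, Ren1, Ace, Agtr1a, Agtr1b, Agtr2, Mas1, Atp6ap2 and Lnpep, out of 55679 genes in the expression table of mouse left ventricle. They were chosen by name as the substrate, the enzymes and the receptors of this hormone system, by a rule that itself uses no measured value. All samples were left ventricles of wild-type (WT) mice, male C57BL/6J animals by the study's methods, whose hearts had been flushed with saline. The control group was 4 mice given saline for 7 days by a subcutaneous osmotic mini-pump, and the ANG II group was 4 mice given angiotensin II by the same route and for the same time at 1500 ng/kg/min, a pressor dose. The labels call the treated ventricles hypertensive. For this model the paper reports raised blood pressure, thicker ventricular walls, larger myocytes and more collagen. The comparison asks how the ventricle's own transcripts for the system that makes and senses the peptide differed after a week of infusion. The peptide, the raised pressure and the remodelling come together in this design, and their separate parts were not tested.

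Angiotensinogen, the product of Agt, is cut by renin (Ren1) to angiotensin I, and angiotensin-converting enzyme (Ace) cuts that to angiotensin II. Angiotensin II acts through type 1 receptors, which in the mouse are encoded by Agtr1a and Agtr1b, and through the type 2 receptor Agtr2. Mas1 encodes the receptor for the shorter peptide angiotensin 1-7. Atp6ap2 is the (pro)renin receptor and also an accessory subunit of the vacuolar proton pump, and Lnpep is insulin-regulated aminopeptidase, the angiotensin IV binding site. Most circulating renin and angiotensinogen come from kidney and liver, and cardiac ACE is known mainly from endothelial cells.

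Values are fragments per kilobase of transcript, scaled to the fragments of the library (FPKM). Each library held 14455656 to 16564829 fragments, as recovered from the steps of the deposited values. Log2 fold changes are ANG II minus control on the log2(FPKM + 1) scale, which understates changes of low genes. They were tested with limma over the 19364 genes whose mean reached 0.1 FPKM. A gene was called at an adjusted p under 0.05 and a log2 fold change beyond 0.5 either way. Of all genes tested, 15.4% were called, 14% higher and 1.41% lower in ANG II, and in 33.7% the 2 groups did not overlap. The median gene was 0.15 higher on the log2 scale in ANG II, so values near that are the middle of the table. The split of calls depends on the scaling of the libraries, with 2708 genes higher and 273 lower as given here, 1671 and 804 under median-of-ratios scaling (8.65% and 4.16% of genes tested), and 1413 and 986 under quantile normalization (7.30% and 5.09%). Cardiomyocyte markers were abundant in every library (Myh6 was 10367 ± 391 FPKM in control), as the labelled tissue requires, although the extraction text of the labels names another cell source.

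Upstream sequence is shown for Agt, Ace and Atp6ap2 because these are the members that were called, and their starts differ in base composition and in core motifs. Each run is the 250 bases before the transcription start from RefSeq on GRCm38.p6, read 5′ to 3′ on the gene's own strand. Capitals mark every match on either strand to 4 short motifs. The TATA box, which positions the polymerase, was searched as TATAAA. The GC box, bound by Sp1 and related factors, was searched as GGGCGG. The box bound by nuclear factor Y was searched by its name, CCAAT. The core of the cyclic AMP response element was searched as TGACG.
Agt, chr8:124569707-124569956, minus strand: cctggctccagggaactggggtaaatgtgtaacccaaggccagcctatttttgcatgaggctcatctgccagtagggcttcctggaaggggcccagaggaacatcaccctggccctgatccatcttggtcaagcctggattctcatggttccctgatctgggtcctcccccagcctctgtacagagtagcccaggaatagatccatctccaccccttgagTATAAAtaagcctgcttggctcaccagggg
Ace, chr11:105967698-105967947, plus strand: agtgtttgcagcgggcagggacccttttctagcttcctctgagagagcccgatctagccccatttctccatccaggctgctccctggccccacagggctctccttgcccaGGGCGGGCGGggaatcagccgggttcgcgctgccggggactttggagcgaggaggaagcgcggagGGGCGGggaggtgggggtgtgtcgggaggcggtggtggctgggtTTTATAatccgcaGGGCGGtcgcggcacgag
Atp6ap2, chrX:12587509-12587758, plus strand: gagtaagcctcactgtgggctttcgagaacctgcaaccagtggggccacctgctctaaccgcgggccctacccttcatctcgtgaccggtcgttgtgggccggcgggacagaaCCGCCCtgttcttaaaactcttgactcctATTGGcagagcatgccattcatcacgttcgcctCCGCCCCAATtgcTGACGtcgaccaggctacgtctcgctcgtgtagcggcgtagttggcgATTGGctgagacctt

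The Agt window held a single TATA box at -30 to -25 from the start and none of the other motifs. The Ace window held 4 GC boxes, of which those at -140 and -136 overlap, and a TATA box on the reverse strand at -31 to -26. The Atp6ap2 window held no TATA box, but 3 CCAAT boxes, 2 GC boxes and 1 cyclic AMP response core at -62 to -58, with the GC box at -75 to -70 sharing its last base with a CCAAT box. Of 32851 windows of this length in the genome's table, 12.4% held a TATA box, 32.7% a GC box, 33.8% a CCAAT box and 17.8% the cyclic AMP response core. GC content was 55.6% for Agt, 67.2% for Ace and 59.2% for Atp6ap2, beside a median of 52.4% over all windows. Windows were found for 8 of the 9 members. Agtr1a was not among them. Ace has a second listed start inside the gene, with the window chr11:105974939-105975188, and values per gene do not separate the 2 starts. These matches describe letters and were not set against any binding data.

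Among the 9 members, 6 passed the filter on low values, and Ace, Atp6ap2 and Agt were higher in ANG II than in control. Only Ace of these was also called after median-of-ratios scaling or quantile normalization. The other 3 tested members, Lnpep, Mas1 and Agtr1a, were not called. Ren1, Agtr1b and Agtr2 were at or near 0 in every library. The 3 called members are read against the 14% of all genes called higher, and the median log2 fold change of the 6 tested members was 0.37, beside 0.15 over all genes. The groups did not overlap for 4 of the 6 (Agt, Ace, Atp6ap2 and Lnpep), beside 33.7% of all genes tested. The left ventricle held transcripts for the substrate, the converting enzyme and the type 1 receptor, but at most 2 fragments per library of renin.

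**Figure D1:**
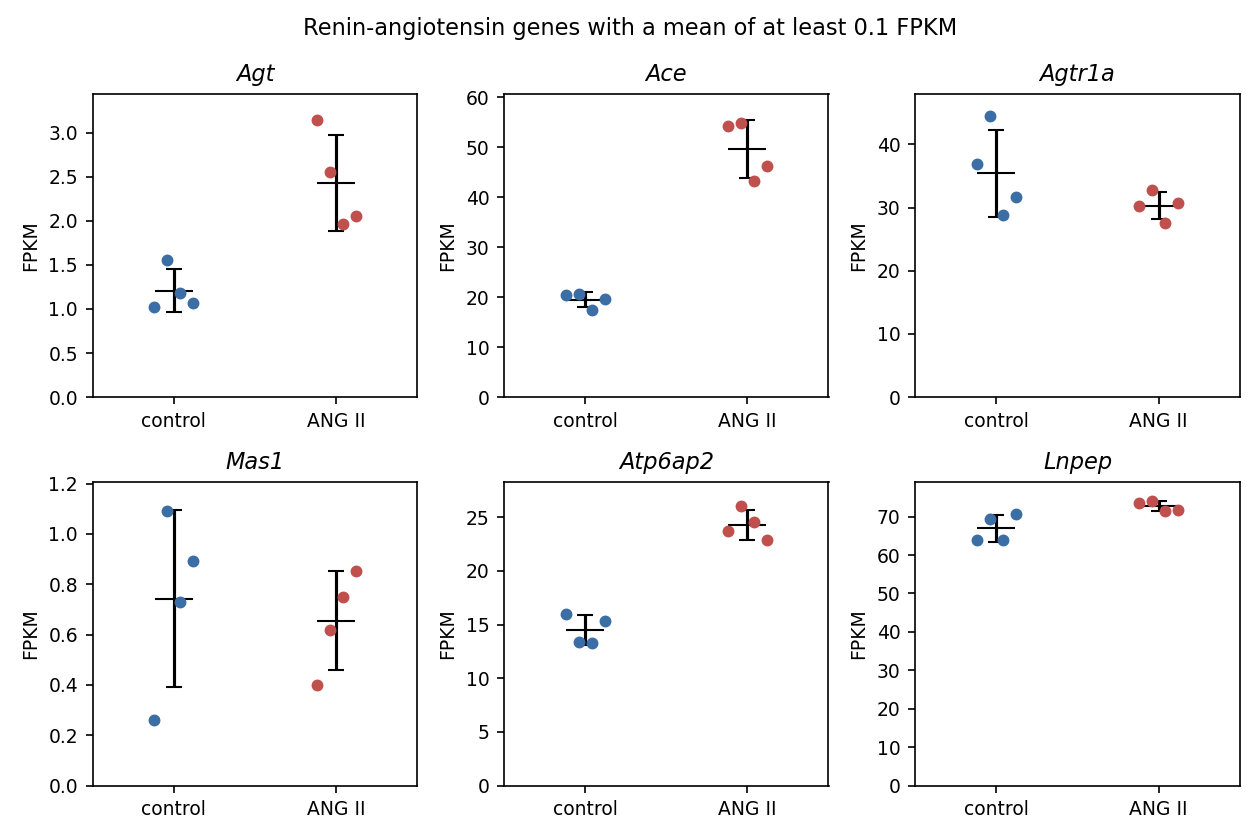
FPKM (vertical axes, from 0) of the 6 members whose mean reached 0.1 FPKM, in each control (blue) and ANG II (red) library, with the mean and SD in black (n = 4 per group). For Ace the 4 ANG II libraries lie between 43.2 and 54.8 FPKM and the controls between 17.4 and 20.6, while for Agtr1a and Mas1 the groups overlap.

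Agt (ENSMUSG00000031980, chr8:124556534-124569706 on GRCm38, minus strand), the only known precursor of the angiotensin peptides, was a low transcript that was higher in ANG II. The 4 control libraries measured 1.024, 1.56, 1.18 and 1.07 FPKM. The 4 ANG II libraries measured 3.14, 2.55, 1.96 and 2.05 FPKM. All ANG II libraries lay above all controls, with ANG II 1 the highest and ANG II 3 the lowest of the treated group. The means were 1.21 ± 0.242 and 2.43 ± 0.543 FPKM (SD, n = 4 each), a ratio of 2.01. The log2 fold change was 0.63 (SE 0.137, 95% interval 0.32 to 0.93, adjusted p = 0.00629). These values rest on 28 to 43 fragments per control library and 56 to 90 per ANG II library. The log2 fold change was 0.94 with a pseudocount of 0.1 and 0.99 in limma-voom on the recovered fragments. The call was lost under median-of-ratios scaling (0.48, adjusted p = 0.0240) and under quantile normalization (0.34, adjusted p = 0.0852).

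Ren1 (ENSMUSG00000070645, chr1:133350510-133360325, plus strand), which encodes renin and is the step that limits the cascade in plasma, had 2 fragments in control 4, 0.145 FPKM, and none in the other 7 libraries. A count of 0 allows up to 3 fragments, which is 0.200 to 0.230 FPKM across the libraries. Renin mRNA was therefore not detectable in ANG II at this depth, and the control value is itself under that limit. This limit covers counting error only. The kidney and adrenal markers Umod, Slc12a1, Cyp11b2 and Cyp11b1 summed to at most 0.308 FPKM in any library, with Cyp11b1 and Cyp11b2 at 0 throughout.

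Ace (ENSMUSG00000020681, chr11:105967945-105989964, plus strand), the peptidyl-dipeptidase that forms angiotensin II and degrades bradykinin, had the largest log2 fold change of the 6 tested members. The control libraries measured 20.5, 20.6, 17.4 and 19.6 FPKM. The ANG II libraries measured 54.2, 54.8, 43.2 and 46.2 FPKM. The lowest ANG II library was above the highest control by more than the range of either group. The means were 19.5 ± 1.48 and 49.6 ± 5.81 FPKM, a ratio of 2.54. The log2 fold change was 1.30 (SE 0.0890, 95% interval 1.10 to 1.499, adjusted p = 1.05e-05), and Ace was called in all 17 alternatives that kept both thresholds, at 1.08 to 1.36. It was the only member whose log2 fold change exceeded 1. A part of Ace exons, 5.58%, lies under Gm11651 on the opposite strand, and the strand setting of the counting was not given in the sources used here.

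Each of the endothelial markers had a smaller log2 fold change than Ace. The 7 markers Pecam1, Cdh5, Kdr, Tie1, Tek, Vwf and Emcn summed to 377 to 398 FPKM in control and 432 to 487 in ANG II. Of these, 2 of 7 were called, Pecam1 at a log2 fold change of 0.52 and Vwf at 0.56, beside 1.30 for Ace. Measured in each library relative to the mean log2 value of the 7 markers, a comparison chosen after seeing the data, Ace differed by 1.09 between the groups (-1.20 ± 0.0961 in control and -0.11 ± 0.193 in ANG II). The part of endothelial cell number in the Ace value was not tested. In bulk tissue, a change in the number of cells of a type and a change in RNA per cell cannot be told apart.

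The other peptidases divided into a group that rose, a single gene that fell and a group that was not called. The list held 23 further genes of the cascade, of which 22 were in the table and 15 were tested. There were 4 called higher and 1 lower, beside 15.4% of all genes called, with a list median of 0.28. All 5 were called in each of the 17 alternatives that kept both thresholds, and a log2 threshold of 1 left Anpep and Prcp. The 7 untested genes were Cma2, Ctsg, Klk1, Mrgprd, Bdkrb1, Kng1 and Kng2.

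Anpep, aminopeptidase N, which shortens angiotensin III to angiotensin IV, was higher in ANG II. It measured 5.89 to 7.39 FPKM in the 4 control libraries and 15.8 to 18.9 FPKM in the 4 ANG II libraries, with a log2 fold change of 1.19 (SE 0.0863, adjusted p = 1.43e-05). Prcp, prolylcarboxypeptidase, which can form angiotensin 1-7 from angiotensin II, rose from 8.44 ± 0.993 to 18.7 ± 2.71 FPKM (log2 fold change 1.05, SE 0.113, adjusted p = 0.000127). Neither gene's groups overlapped.

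The lysosomal proteases Ctsa (cathepsin A) and Ctsd (cathepsin D), which can cut angiotensin peptides or angiotensinogen, rose from 92.6 ± 1.69 to 160 ± 7.76 FPKM (log2 fold change 0.78, adjusted p = 5.49e-06) and from 129 ± 6.64 to 220.2 ± 12.4 FPKM (0.77, adjusted p = 1.62e-05). Both are uncertain as single genes. Of the 50-base words of Ctsd, 32.4% also occur in other genes, most often in the overlapping Gm49369. Of Ctsa exon bases, 17.4% lie under Pltp or Neurl2 on the other strand.

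Mme encodes neprilysin, which makes angiotensin 1-7 from angiotensin I and degrades natriuretic peptides. It was the only one of the 15 tested genes of the list to be called lower. The control libraries measured 5.03, 4.68, 4.89 and 4.54 FPKM, and the ANG II libraries 2.19, 2.06, 3.50 and 3.25 FPKM. All treated libraries were below all controls, and the treated group was the more spread. The log2 fold change was -0.65 (SE 0.138, 95% interval -0.95 to -0.34, adjusted p = 0.00563).

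Enpep, aminopeptidase A, which turns angiotensin II into angiotensin III, had a log2 fold change of 0.37 (SE 0.116, adjusted p = 0.0350), under the fold threshold. Agtrap, which binds the type 1 receptor and promotes its internalization, was at 0.29 (SE 0.0540, adjusted p = 0.00284), and Ece1, endothelin-converting enzyme, was at 0.28 (adjusted p = 0.00399). Thop1, Rnpep, Nln and Prep lay between 0.076 and 0.28 and were not called. Cma1, a mast cell chymase able to form angiotensin II without ACE, averaged 0.692 ± 0.390 FPKM in the controls against 0.701 ± 0.227 FPKM after ANG II (log2 fold change 0.030, adjusted p = 0.917). The 6 mast cell markers, Cma1 among them, summed to 6.13 to 9.91 FPKM in control and 7.57 to 8.27 in ANG II.

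The kinin genes were at the edge of detection. Bdkrb2, the constitutive bradykinin receptor, measured 0.0637 to 0.163 FPKM in control and 0.132 to 0.558 in ANG II (log2 fold change 0.30, adjusted p = 0.0621). The ratio of the means was 3.27, and the log2 fold change was 1.08 with a pseudocount of 0.1 (adjusted p = 0.0667) and 1.55 in limma-voom (adjusted p = 0.0373), which alone among the alternatives called it. Bdkrb1, the inducible receptor, had no fragment in any control library and 2, 2, 3 and 2 fragments in the ANG II libraries. Kng2 had none in control and 3, 1, 2 and 1 in ANG II, and shares 19.4% of its 50-base words with other genes, mostly with Kng1, which was at 0 throughout.

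**Figure D2:**
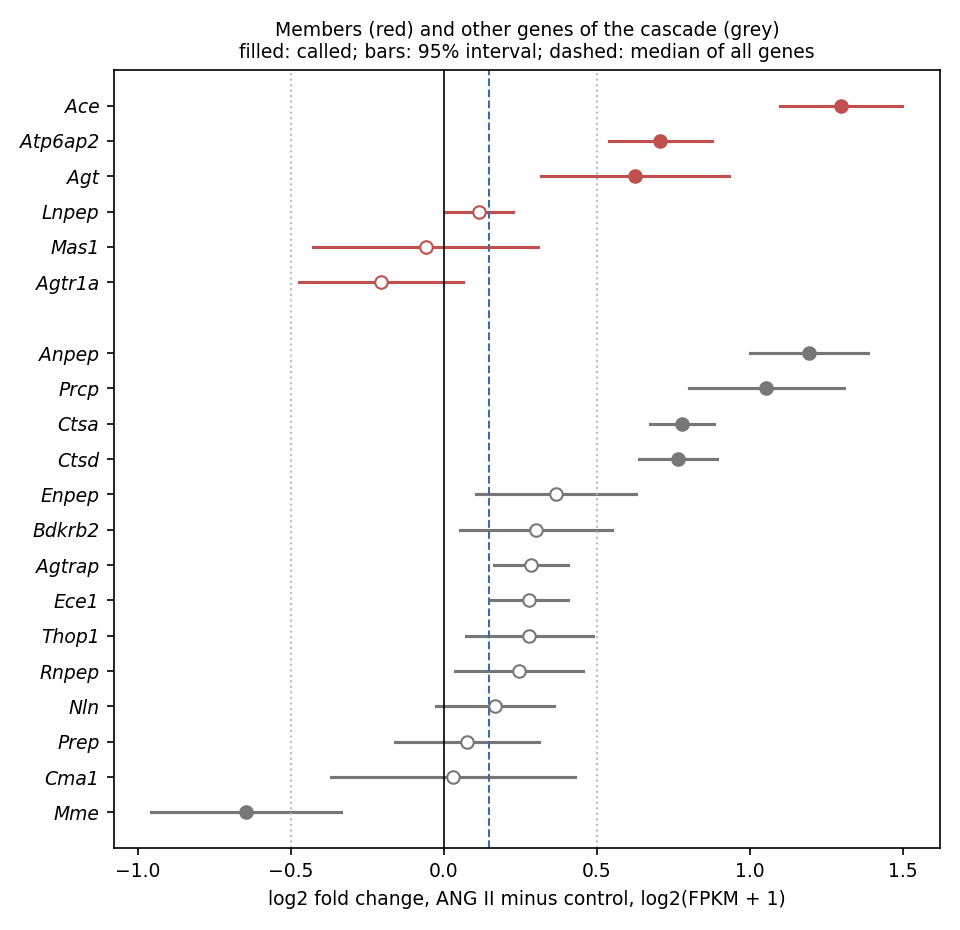
Log2 fold change (horizontal axis, ANG II minus control, log2(FPKM + 1)) with its 95% interval for the 6 tested members (red) and other tested genes of the cascade (grey), with filled points for called genes. The dashed line is the median of all genes, 0.15, dotted lines mark the fold threshold of 0.5, and Mme at -0.65 is the only called gene to the left of 0.

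Of the receptors for angiotensin II and angiotensin 1-7, Agtr1a was the only one above 2 FPKM in any library. Agtr1a (ENSMUSG00000049115, chr13:30336441-30382867, plus strand) measured 36.9, 44.5, 28.8 and 31.7 FPKM in control. It measured 30.2, 32.7, 27.5 and 30.8 FPKM in ANG II. All 4 ANG II libraries lay within or below the control range, and the groups overlapped. The means were 35.4 ± 6.90 and 30.3 ± 2.15 FPKM. The log2 fold change was -0.20 (SE 0.120, 95% interval -0.47 to 0.06, adjusted p = 0.227), so a fall of up to 0.47 is inside the interval. Without control 2, the highest control, it was -0.091 (adjusted p = 0.492). Relative to the median gene it was -0.35. Under median-of-ratios scaling it was -0.43 (adjusted p = 0.0185) and under quantile normalization -0.40 (adjusted p = 0.0276), both short of the fold threshold.

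Agtr1b (ENSMUSG00000054988, chr3:20314473-20367177, minus strand), the second type 1 receptor gene of rodents, had 1 fragment in control 2, 0.0362 FPKM, and none elsewhere. Agtr1a and Agtr1b share little of their transcript sequence at the length of a read stretch, since 1.27% of the 50-base words of Agtr1a occur in another gene, mostly in Agtr1b. Agtr2 (ENSMUSG00000068122, chrX:21484544-21489164, plus strand), a receptor abundant in fetal tissue, had no fragment in any of the 8 libraries, which allows up to 0.101 to 0.115 FPKM per library. Since Agtr2 was at 0 throughout, no ratio of the 2 receptor types was computed.

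Mas1 (ENSMUSG00000068037, chr17:12841079-12868143, minus strand) was near the limit of a useful count. The control libraries measured 0.262, 1.09, 0.732 and 0.891 FPKM, from 5, 21, 16 and 18 fragments. The ANG II libraries measured 0.400, 0.618, 0.752 and 0.854 FPKM, from 8, 13, 15 and 18 fragments. The groups overlapped, and the log2 fold change was -0.058 (SE 0.164, 95% interval -0.43 to 0.31, adjusted p = 0.819). Its sign turned when control 2 (0.037) or ANG II 1 (0.020) was left out.

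The genes that act below the angiotensin receptors were followed as a list of 32 G proteins, phospholipases, arrestins, kinases, exchange factors and partners. Every gene passed the filter, and 9 were called higher with none lower, beside 14% of all genes called higher, with a list median of 0.33. Median-of-ratios scaling gave 5 higher and 1 lower and quantile normalization 4 higher and 1 lower, the lower gene being Rgs2 in both. Arrb2, beta-arrestin 2, which uncouples and internalizes activated receptors, had the largest log2 fold change of the list. It rose from 10.6 ± 2.58 to 25.6 ± 3.85 FPKM (log2 fold change 1.21, SE 0.156, adjusted p = 0.000334). Grk5, a kinase that phosphorylates activated receptors, measured 18.6 to 22.2 FPKM in control and 32.3 to 37.0 in ANG II (0.79, adjusted p = 4.35e-05).

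Prkcd, protein kinase C delta, rose from 12.1 ± 0.995 to 25.3 ± 3.55 FPKM (log2 fold change 0.99, adjusted p = 7.47e-05). Egfr, the growth factor receptor that type 1 receptors transactivate, rose from 4.21 ± 0.794 to 8.74 ± 0.768 FPKM (0.91, adjusted p = 0.000366). Gnaq, the G protein subunit through which type 1 receptors activate phospholipase C, was singled out after its value was seen, at 17.7 ± 0.418 and 23.4 ± 1.33 FPKM (0.39, adjusted p = 0.000778, under the fold threshold). Rgs2, which ends Gq signalling, was also singled out after its values were seen. It measured 24.5, 44.0, 25.1 and 28.002 FPKM in control and 21.4, 16.9, 21.01 and 23.5 in ANG II. The groups did not overlap, but the log2 fold change of -0.50 (SE 0.174, adjusted p = 0.0502) missed the p threshold and was called in 8 of the 17 alternatives that kept both thresholds. It was -0.31 (adjusted p = 0.0512) without control 2, the highest control, and was called without control 1 (-0.59, adjusted p = 0.0385) or control 3 (-0.58, adjusted p = 0.0488).

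Atp6ap2 (ENSMUSG00000031007, chrX:12587801-12617049, plus strand), which binds renin and prorenin and is needed to assemble the proton pump, had the second largest log2 fold change of the tested members. That rank belongs to the log2(FPKM + 1) scale, which understates the low gene Agt. Agt was ahead of Atp6ap2 with a pseudocount of 0.1 (0.94 and 0.74) and in limma-voom (0.99 and 0.75). Atp6ap2 measured 15.96, 13.4, 13.3 and 15.3 FPKM in the control libraries. The ANG II libraries measured 23.7, 26.03, 24.6 and 22.8 FPKM. The groups were well apart, with a similar spread in each. The means were 14.5 ± 1.36 and 24.3 ± 1.36 FPKM, a ratio of 1.67, and the log2 fold change was 0.71 (SE 0.0753, 95% interval 0.54 to 0.88, adjusted p = 0.000121). Under median-of-ratios scaling (0.49, adjusted p = 0.00138) and quantile normalization (0.48, adjusted p = 0.00161) it passed the p threshold but fell just under the fold threshold.

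The other V-ATPase subunits, the pump that acidifies lysosomes and endosomes, mostly missed the call. Of 24 genes, 20 could be tested, and 5 of these were called higher, beside 14% of all genes, with a list median of 0.32. Of these 5, 3 were called after median-of-ratios scaling and 2 after quantile normalization. Atp6v0a4, an isoform best known from kidney, rose from 0.762 ± 0.406 to 3.24 ± 1.015 FPKM (log2 fold change 1.26, SE 0.221, adjusted p = 0.00195). Tcirg1, the isoform of osteoclasts and immune cells, rose from 15.3 ± 2.49 to 27.1 ± 1.23 FPKM (0.80, adjusted p = 0.000304). Atp6v1g2 was at 0.80 (adjusted p = 0.0126), with overlapping groups, and Atp6v1a, the catalytic subunit, at 0.63 (adjusted p = 6.47e-05). The other accessory subunit, Atp6ap1, was singled out after its value was seen and lay at 0.35 (adjusted p = 0.000247), below the fold threshold.

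Lnpep (ENSMUSG00000023845, chr17:17521410-17625050, minus strand), which travels with the glucose transporter GLUT4 in insulin-responsive vesicles, had the highest FPKM of the members, as deposited, in both groups. The control libraries measured 64.0, 69.3, 64.0 and 70.7 FPKM. The ANG II libraries measured 73.5, 74.0, 71.4 and 71.7 FPKM. The groups did not overlap, but the gap between them was under 1 FPKM. The means were 67.0 ± 3.51 and 72.7 ± 1.30 FPKM, a ratio of 1.08. The log2 fold change was 0.12 (SE 0.0489, 95% interval 0.0072 to 0.23, adjusted p = 0.0961), which is -0.031 relative to the median gene, and its sign turned under 3 other scalings.

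The GLUT4 vesicle list of 15 genes had a median log2 fold change of 0.15, equal to that of all genes. There were 4 called, all higher, beside 14% of all genes. These were Lrp1 at 1.13 (69.7 ± 7.17 to 154 ± 13.1 FPKM, adjusted p = 1.84e-05), Tbc1d1 at 0.60, Rab8a at 0.55 and Aspscr1 at 0.53. Lrp1 is an endocytic receptor of the vesicle membrane, Tbc1d1 a Rab GTPase-activating protein, Rab8a a vesicle GTPase, and Aspscr1 (TUG) a tether that retains the vesicles. Under the 3 other scalings Tbc1d1, Rab8a and Aspscr1 lost their calls, which left Lrp1 as the 1 gene higher and Slc2a4 and Tbc1d4 as the 2 lower. Rab8a was also not called without control 3 or without ANG II 1, and Aspscr1 without control 4 or without ANG II 3. Slc2a4, the transporter GLUT4 itself, and Tbc1d4, the main insulin-regulated Rab GTPase-activating protein of muscle, were singled out after their values were seen. Slc2a4 was 214 ± 7.56 FPKM in control and 164 ± 16.04 in ANG II (log2 fold change -0.39, SE 0.0711, adjusted p = 0.00237). Tbc1d4 was 36.8 ± 2.11 and 27.9 ± 2.03 FPKM (-0.39, adjusted p = 0.00145). Both stayed above the threshold of -0.5 and so were not called, and both were called lower under those 3 scalings.

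**Figure D3:**
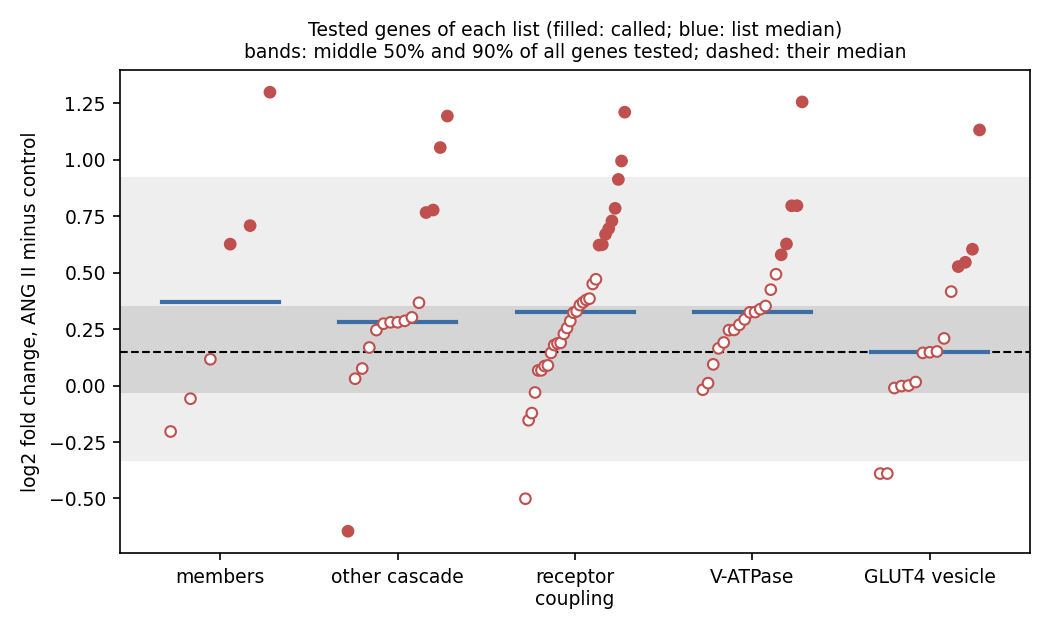
Log2 fold changes (vertical axis, ANG II minus control) of the tested genes in the members and the 4 related lists, with filled points for called genes and a blue line for the list median. The dashed line is the median of all 19364 genes, 0.15, and the bands hold the middle 50% and 90% of them. The list medians lie at 0.37, 0.28, 0.33, 0.32 and 0.15.

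Markers of other cell types moved with the groups, and their part in these results was not tested. All 6 macrophage markers were called higher, with summed levels of 108 to 138 FPKM in control and 262 to 350 in ANG II. Of 7 fibroblast markers, 6 were called higher (1031 to 1375 and 1671 to 2025 FPKM), with Pdgfra at a log2 fold change of 0.67. The remaining marker, Gsn, had the highest control level of the list and went the other way. It was 819 ± 97.4 FPKM in control and 587 ± 122 in ANG II, with overlapping groups. Its log2 fold change of -0.496 (adjusted p = 0.0280) fell just short of the fold threshold. Of 6 pericyte markers, 3 were called higher and 1 lower (465 to 491 and 503 to 550 FPKM). Of 6 cardiomyocyte markers, 2 were called lower (32979 to 33883 and 23844 to 25856 FPKM). All 3 erythroid markers were higher (90.4 to 452 and 540 to 1905 FPKM), as were 2 of 4 atrial markers (6.70 to 55.2 and 61.0 to 241 FPKM). Of 5 smooth muscle markers, 1 was called. None of the tested mast cell, adipocyte and mesothelial markers was called.

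The order of the members by level depends on the transcript length used, since the deposited values follow the mean length of the annotated transcripts. For Agtr1a that mean is 745 bases and its longest transcript has 2199. As deposited, control means ran Lnpep 67.0, Agtr1a 35.4, Ace 19.5, Atp6ap2 14.5, Agt 1.21 and Mas1 0.744 FPKM. The libraries of neighbours in this order did not overlap for Lnpep, Agtr1a, Ace and Atp6ap2, whereas Agt and Mas1 overlapped. Per longest transcript, Agtr1a (12.01 ± 2.34) and Ace (11.6 ± 0.882) overlapped in control, and both overlapped Atp6ap2 at 9.41 ± 0.882. In ANG II on that scale Ace (29.5 ± 3.45) was above Lnpep (23.6 ± 0.420), Atp6ap2 (15.8 ± 0.885) and Agtr1a (10.3 ± 0.729), whereas as deposited Lnpep (72.7) was above Ace (49.6), Agtr1a (30.3) and Atp6ap2 (24.3).

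**Figure D4:**
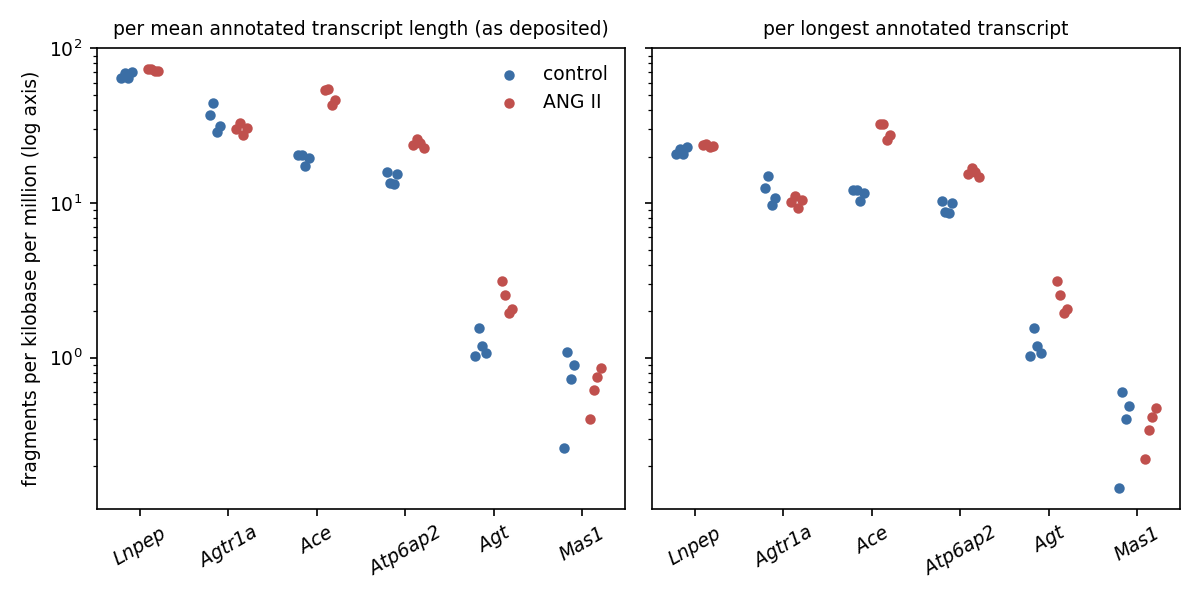
Level of the 6 tested members in each control (blue) and ANG II (red) library on a log axis, per mean annotated transcript length as deposited (left) and per longest annotated transcript (right). On the left Agtr1a is above Ace in control, on the right their control libraries overlap at 12.01 and 11.6 on average, and Ace is above Lnpep in ANG II only on the right.

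The genes whose pattern over the 8 libraries was most like each called member were found among the 12946 other genes whose mean reached 1 FPKM, by the root mean square difference of centred log2 values. For Ace these were Rai14, an actin-associated protein, at 0.0522, and Pcolce, the procollagen C-proteinase enhancer, at 0.0604. For Atp6ap2 they were Arhgdia at 0.0606, and Galc, the lysosomal galactosylceramidase, at 0.0624. For Agt they were Cul7, a cullin ubiquitin ligase subunit, at 0.0758, and Pianp at 0.0795. Many genes were nearly as close, with 12 within 0.1 of Ace, 54 of Atp6ap2 and 18 of Agt. The measure uses log2(FPKM + 1), so for low genes it does not match fold changes. Cul7 averaged 8.91 FPKM in control and 14.0 in ANG II, and Pianp 0.668 and 1.67. The values describe likeness in these 8 libraries only.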

How the data were processed

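RNA was measured by paired-end sequencing (150-base reads) of poly(A)-selected left ventricle from 4 control and 4 ANG II mice, grouped by the labels. The deposited table holds FPKM per gene, made by the authors; the submitters' processing notes name Bowtie2, HISAT and RSEM, while the genome build, annotation and strand setting were not given in the sources used here. The gene IDs matched GENCODE M21 (GRCm38) for 55141 of 55679 genes, which supplied coordinates and lengths. Low FPKM values were whole multiples of 1 fragment over the mean transcript length, and 97.1% to 99.2% of values under 60 fragments came out within 0.05 of a whole number. Those fragments gave the depth, the limit of 3 fragments behind a 0, and a limma-voom alternative. FPKM has no count scale, so the main test was limma 3.58.1 (R 4.3.3), whose eBayes step let the variance follow the mean, applied to log2(FPKM + 1) of genes with a mean from 0.1 FPKM up, and Benjamini-Hochberg adjustment over all genes tested. The script was tested on simulated data. A tested gene of the wider cascade is not reported here.

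The alternatives were other pseudocounts, filters, scalings and thresholds, a replicate block, and each library left out. The members and lists were chosen with earlier results of these data known, and the promoter motifs after the data were seen. All 9 members and all called genes of the cascade are named, with up to 4 called genes each way from the other lists. The p-values set the difference between the groups against the spread within them in these 8 samples, with variances moderated over all genes tested. Reads without molecular identifiers are not independent molecules, so the limits cover counting error only.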

Additional observations from a re-analysis of the deposited data

Results flagged for a closer look

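In 88 groups of 4 libraries tested for a library standing apart (gap to its neighbour against the group's range, Dixon's 95% criterion), 7 were found, where chance gives about 1 in 20. Ren1 in control (0.145 FPKM in control 4) and Agtr1b in control (0.0362 FPKM in control 2) each rest on 1 library with any fragment. With the other libraries at 0 the flag follows by construction, so the chance rate does not apply to these groups. Prep was low in 1 control library (4.02 FPKM), as was Ece1 (64.4 FPKM). In ANG II, Prkcd (30.6 FPKM) and Egfr (9.89 FPKM) were each high in ANG II 4, and Atp6v0a4 was low in 1 library (1.73 FPKM). Leaving out any 1 library left Prkcd, Egfr and Atp6v0a4 called. It left Prep (log2 fold change 0.0072 to 0.14) and Ece1 (0.25 to 0.32) not called.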

How the results depend on the processing

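Ace and the 5 called genes of the wider cascade kept their calls in all 17 alternatives that kept both thresholds. The median of all genes moved from 0.15 to 0.0025 under median-of-ratios scaling and to -0.044 under quantile normalization, and under each of these 1 member was called in place of 3, with 3 and 2 V-ATPase genes and, under quantile normalization, 5 coupling genes. Of the GLUT4 vesicle genes, 1 was then called higher and 2 lower. Without mitochondrial and the 10 most abundant genes, 3 V-ATPase genes were called. A log2 threshold of 1 left 1 member, 2 other cascade genes, 1 coupling, 1 V-ATPase and 1 GLUT4 vesicle gene, and the adjusted p alone gave 9 other cascade, 21 coupling, 17 V-ATPase and 9 GLUT4 vesicle genes, by construction. With 1 library left out, the counts were 3 to 3 members, 5 to 5 other cascade, 9 to 11 coupling, 5 to 6 V-ATPase and 3 to 4 GLUT4 vesicle genes. Of the 88 tested genes of the 5 lists, 28 turned sign in some alternative, none of them a called gene. Among the members and the wider cascade these were Lnpep (-0.11, -0.050 and -0.029) and Prep (-0.12, -0.24 and -0.047) under the 3 scalings, Nln (-0.043 and -0.082) under the first 2, Cma1 under the 3 scalings (-0.057, -0.13 and -0.026) and without control 4 (-0.13) or ANG II 1 (-0.059; range -0.13 to 0.14), and Mas1 without control 2 (0.037) or ANG II 1 (0.020; range -0.21 to 0.037). The cause of these turns was not tested. Same-numbered samples correlated at -0.032 to 0.062 in their deviations, and differently numbered ones at -0.088 to 0.094. No pairing by number was seen, though with 4 libraries per group this cannot exclude it. The replicate block gave 3 members, 5 cascade, 9 coupling, 5 V-ATPase and 4 GLUT4 vesicle genes, and 2968 calls over all genes in place of 2981. Mas1 rests on 5 to 21 fragments per library, and Ren1, Agtr1b and Agtr2 were below the filter of 0.1 FPKM.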
